A study of Mus musculus with 48 samples.

Results

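The genes of the proteasome were followed through poly(A) RNA libraries of C57BL/6 mouse brain, all made from medial prefrontal cortex. They were taken by name as all gene symbols of the Psma, Psmb, Psmc, Psmd, Psme, Psmf and Psmg series with a number, leaving out the immunoproteasome genes Psmb8, Psmb9 and Psmb10. This gave 45 of the 24062 genes counted, classed by name as 16 of the core, 20 of the regulatory cap, 4 alternative activators, 1 inhibitor and 4 assembly chaperones. Total homogenates, a small part of the minced tissue set aside before dissociation, came from 10 mice that had free access to 15% ethanol every second day for 60 days and from 9 control mice that drank water. Cells of the same mice, freed of myelin and captured with magnetic beads against CD11b, gave 10 microglial libraries with ethanol and 8 with water, and the microglial library of 1 further water mouse was not analysed here. In a second cohort, sampled as microglia only, 5 mice had an intraperitoneal injection of 1.5 mg/kg lipopolysaccharide (LPS, a bacterial cell wall product) 1 week before death and 5 had saline. For 4 of the 9 water homogenates (mice 21, 24, 25 and 26) the protocol text in the labels is that of the microglia, while their titles and neuronal markers are those of homogenate. The labels name no transgene and number 1 mouse per library within each group, so p-values rest on the spread between libraries of different mice. Comparisons of homogenate with microglia hold libraries of the same mice, and their main fits do not model this pairing. CD11b also marks border macrophages, monocytes and neutrophils.

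The proteasome is the protease that removes ubiquitin-tagged proteins in every cell. Its core is a barrel of stacked alpha and beta rings, with the cutting sites inside on the beta subunits Psmb5, Psmb6 and Psmb7. A cap made of a ring of ATPases (Psmc) and non-ATPase subunits (Psmd) sits on the barrel, binds ubiquitin, removes it and threads the protein in. The activators PA28 and PA200 can replace the cap without using ubiquitin, and in immune cells interferon raises both PA28 alpha and beta and the immunoproteasome subunits that take the place of the standard cutting sites.

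Total counts in genes ranged from 9.72 M to 67.5 M a library, the lowest in the microglia of water mouse 24, where 56.1% of uniquely aligned reads lay outside genes. The 6 markers of microglia summed to 428 to 556 CPM (counts scaled to a common library total in genes) in homogenates and to 22450 to 31334 CPM in isolated cells. The 6 neuronal markers summed to 5188 to 7480 CPM in homogenates and to 9.03 to 88.1 CPM in isolated cells. Border macrophage markers summed to 37.3 to 201 CPM in homogenates and to 1690 to 2715 CPM in isolated cells. Astrocyte markers went from 1241 to 2042 CPM in homogenates to 109 to 230 CPM, and oligodendrocyte markers from 1249 to 11012 CPM to 130 to 748 CPM. The part of these other cells in the differences below was not tested. Neutrophil markers reached 14437 CPM in the microglia of water mouse 19, against at most 597 CPM in the other microglial libraries. In the microglia of saline mouse 38 several members lay far from the other 4 saline libraries. Counts of calls are also given without mice 19 and 24 for water microglia against homogenate and against ethanol microglia. For saline microglia against LPS and against water microglia they are also given without mouse 38. Fewer cells of a type and less RNA per cell cannot be told apart in such bulk libraries.

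Promoter windows are shown for the 3 activators that were higher in microglia, for the 2 cap ATPases with the lowest fold changes and for the standard catalytic subunit Psmb5, since the results below turn on them. Each window runs from 250 bases before to 50 bases after the RefSeq start, is read 5′ to 3′ on the strand of the gene, and is on build GRCm38.p6. The GENCODE annotation begins Psme1 at base 55578123, upstream of the window, so this window lies within that gene model. Capitals mark matches, on either strand, to any of 6 motifs named after the sequences. Psme1 (PA28 alpha) lies at chr14:55578244-55578543 on the plus strand, Psme2 (PA28 beta) at chr14:55591052-55591351 on the minus strand and Psme4 (PA200) at chr11:30771525-30771824 on the plus strand. The cap ATPases Psmc5 and Psmc1 lie at chr11:106255935-106256234 and chr12:100109952-100110251, both on the plus strand, and Psmb5 at chr14:54617946-54618245 on the minus strand.
Psme1: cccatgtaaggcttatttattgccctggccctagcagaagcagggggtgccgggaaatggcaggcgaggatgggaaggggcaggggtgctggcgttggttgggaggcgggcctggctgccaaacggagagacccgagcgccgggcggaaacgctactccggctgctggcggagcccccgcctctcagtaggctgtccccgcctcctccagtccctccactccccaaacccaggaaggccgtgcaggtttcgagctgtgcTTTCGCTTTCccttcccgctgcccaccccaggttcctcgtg
Psme2: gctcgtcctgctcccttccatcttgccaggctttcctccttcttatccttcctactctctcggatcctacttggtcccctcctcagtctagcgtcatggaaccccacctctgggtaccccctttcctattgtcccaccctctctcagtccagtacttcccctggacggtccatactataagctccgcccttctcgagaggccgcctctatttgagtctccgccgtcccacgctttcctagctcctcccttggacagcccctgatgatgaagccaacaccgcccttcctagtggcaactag
Psme4: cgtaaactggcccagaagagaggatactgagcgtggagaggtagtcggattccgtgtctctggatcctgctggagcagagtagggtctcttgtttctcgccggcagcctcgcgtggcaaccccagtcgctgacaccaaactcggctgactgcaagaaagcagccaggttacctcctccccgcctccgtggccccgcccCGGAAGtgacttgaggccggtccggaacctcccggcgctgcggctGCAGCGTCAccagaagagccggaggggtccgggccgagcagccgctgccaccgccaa
Psmc5: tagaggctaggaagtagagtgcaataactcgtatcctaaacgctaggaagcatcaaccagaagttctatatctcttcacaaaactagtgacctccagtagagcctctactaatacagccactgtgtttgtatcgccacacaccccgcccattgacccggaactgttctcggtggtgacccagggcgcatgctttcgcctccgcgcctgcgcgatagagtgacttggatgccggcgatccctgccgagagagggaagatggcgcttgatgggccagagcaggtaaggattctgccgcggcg
Psmc1: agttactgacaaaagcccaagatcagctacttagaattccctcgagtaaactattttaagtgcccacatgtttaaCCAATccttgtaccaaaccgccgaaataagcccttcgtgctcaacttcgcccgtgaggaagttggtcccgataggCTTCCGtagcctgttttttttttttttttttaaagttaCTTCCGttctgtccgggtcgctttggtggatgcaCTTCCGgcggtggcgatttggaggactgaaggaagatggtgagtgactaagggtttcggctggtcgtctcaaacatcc
Psmb5: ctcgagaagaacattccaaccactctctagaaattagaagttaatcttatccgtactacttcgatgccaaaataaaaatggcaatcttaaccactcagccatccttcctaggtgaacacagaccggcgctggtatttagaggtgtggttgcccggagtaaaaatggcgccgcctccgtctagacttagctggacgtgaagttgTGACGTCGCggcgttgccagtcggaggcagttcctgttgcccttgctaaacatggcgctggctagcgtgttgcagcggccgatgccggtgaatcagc

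RefSeq windows matched 37 of the 45 members. Psma8, Psmb1, Psmb2, Psmb7, Psmc3, Psmd3, Psmd7 and Psmg2 were not matched. The capitals in Psme1 are an interferon-stimulated response element (GAAA and GAAA with 2 bases between them), here on the opposite strand. The element began at base 10 after the RefSeq start. It was held by 5 member windows (Psme1, Psmd4, Psmd9, Psmg4 and Psmb3), 13.5% of those matched, against 3.44% of all 32851 windows. An antioxidant response element (TGACNNNGC), the kind of site bound by NFE2L1 and NFE2L2, is in capitals in Psme4 and Psmb5. It was held by 6 member windows (Psme4, Psmc6, Psmd12, Psmd9, Psmb5 and Psmb6), 16.2% against 12.4% of all windows. Its stricter form TGACTCAGC, with every base fixed, was held by none of 37 against 0.454%. An ETS core (CGGAAG), the site of a broad family of factors, occurred 3 times in the Psmc1 window and once in that of Psme4. It was found in 21 of 37 member windows, 56.8% against 16.9% of all windows, namely in 13 of 17 cap and 4 of 12 core windows. A CCAAT box, in capitals in Psmc1, was held by 35.1% of member windows and 37.4% of all windows, and the gamma-activated sequence TTCNNNGAA by 5.41% and 8.30%. The 6 motifs can overlap one another, a match is not a measured binding site, and Psme2 and Psmc5 held none of these letters in this window.

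Levels were compared between genes as CPM per kb of the annotated principal transcript. In homogenate, over all 19 libraries, the cap ATPase Psmc5 stood highest at 94.7 ± 5.89 CPM per kb (SD, n = 19). The cap ATPase Psmc1 followed at 70.2 ± 5.03 CPM per kb and the beta subunit Psmb4 at 69.6 ± 6.00 CPM per kb, a difference smaller than the spread of either. In isolated microglia, over all 28 libraries, Psme1 stood highest at 65.3 ± 8.56 CPM per kb (SD, n = 28), ahead of Psmb4 at 58.5 ± 8.74 CPM per kb and the catalytic subunit Psmb6 at 49.3 ± 11.4 CPM per kb, with overlapping ranges. Among the 45 members Psme1 was number 29 in homogenate and number 1 in microglia, while Psmc5 was number 1 and number 16.

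At the low end stood members known for other tissues or for assembly. Psmb11, the beta subunit of thymic epithelium, had no count in any of the 28 microglial libraries, which over their summed counts allows up to 0.00388 CPM (3 counts), and in homogenates it did not exceed 0.323 CPM. Psma8, the alpha subunit of testis, was at 0.415 ± 0.237 CPM (SD, n = 9) in water homogenates and 2.84 ± 2.03 CPM (SD, n = 8) in water microglia. Next above them was the chaperone Psmg4 in homogenate at 5.60 ± 1.24 CPM per kb (SD, n = 19), and in microglia Psmd5 at 4.42 ± 1.51 CPM per kb (SD, n = 28). Psmd5, Psmd9 and Psmd10 carry Psmd names but help to assemble the ATPase ring and leave the finished cap. By their names they stay in the cap class in all counts, sums and ratios here. Their levels were low, at 4.42, 4.89 and 6.97 CPM per kb in microglia and 6.79, 8.06 and 7.09 CPM per kb in homogenate. Psmb11 did not pass the filter on low counts, so 44 of the 45 members were tested in each comparison.

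Summed over their members, core and cap subunits were both at lower levels in isolated microglia than in homogenate. The summed core level was 566 ± 31.9 CPM per kb (SD, n = 9) in water homogenates and 533 ± 43.5 CPM per kb (SD, n = 10) in ethanol homogenates. In microglia it was 434 ± 45.9 CPM per kb (SD, n = 8) with water and 411 ± 27.6 CPM per kb (SD, n = 10) with ethanol. After injection it was 392 ± 71.2 CPM per kb (SD, n = 5) with saline and 349 ± 43.2 CPM per kb (SD, n = 5) with LPS. The ranges of homogenate (490 to 636 CPM per kb) and microglia (297 to 519 CPM per kb) overlapped only through the microglia of water mouse 19 and saline mouse 38.

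The core sum has 16 members, with Psma8 and Psmb11 at low levels, and the cap sum has 20. As a sum over its members, the cap was higher than the core in every group. Its summed level was 779 ± 22.9 CPM per kb (SD, n = 9) in water and 734 ± 36.6 CPM per kb (SD, n = 10) in ethanol homogenates, and 531 ± 43.5 CPM per kb (SD, n = 8) and 532 ± 25.7 CPM per kb (SD, n = 10) in the microglia of the same mice. With saline it was 507 ± 68.2 CPM per kb (SD, n = 5) and with LPS 432 ± 34.4 CPM per kb (SD, n = 5). No microglial library reached the lowest homogenate: the highest, saline mouse 38, was at 623 CPM per kb and the lowest homogenate at 692 CPM per kb. The 6 ATPases accounted for most of the gap, with 336 ± 12.5 CPM per kb (SD, n = 9) in water homogenates against 188 ± 17.5 CPM per kb (SD, n = 8) in water microglia. The 14 non-ATPase members were at 442 ± 11.4 and 343 ± 27.3 CPM per kb in these groups.

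The ratio of core to cap level was 0.727 ± 0.0238 (SD, n = 9) in water and 0.726 ± 0.0306 (SD, n = 10) in ethanol homogenates. In microglia it was 0.818 ± 0.0520 (SD, n = 8) with water and 0.773 ± 0.0335 (SD, n = 10) with ethanol. The injected groups had 0.770 ± 0.0450 (SD, n = 5) with saline and 0.807 ± 0.0873 (SD, n = 5) with LPS. All 6 groups overlapped in range, and no test was made of this ratio because it is a score over chosen members. Which class stood higher depended on the summary: as a median over members the ratio of core to cap was 1.05 in water homogenates and 1.10 in water microglia. The lengths rest on the annotation, where the principal transcripts of Psma2 and Psma3 are much longer than those of other core subunits.

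**Figure D1:**
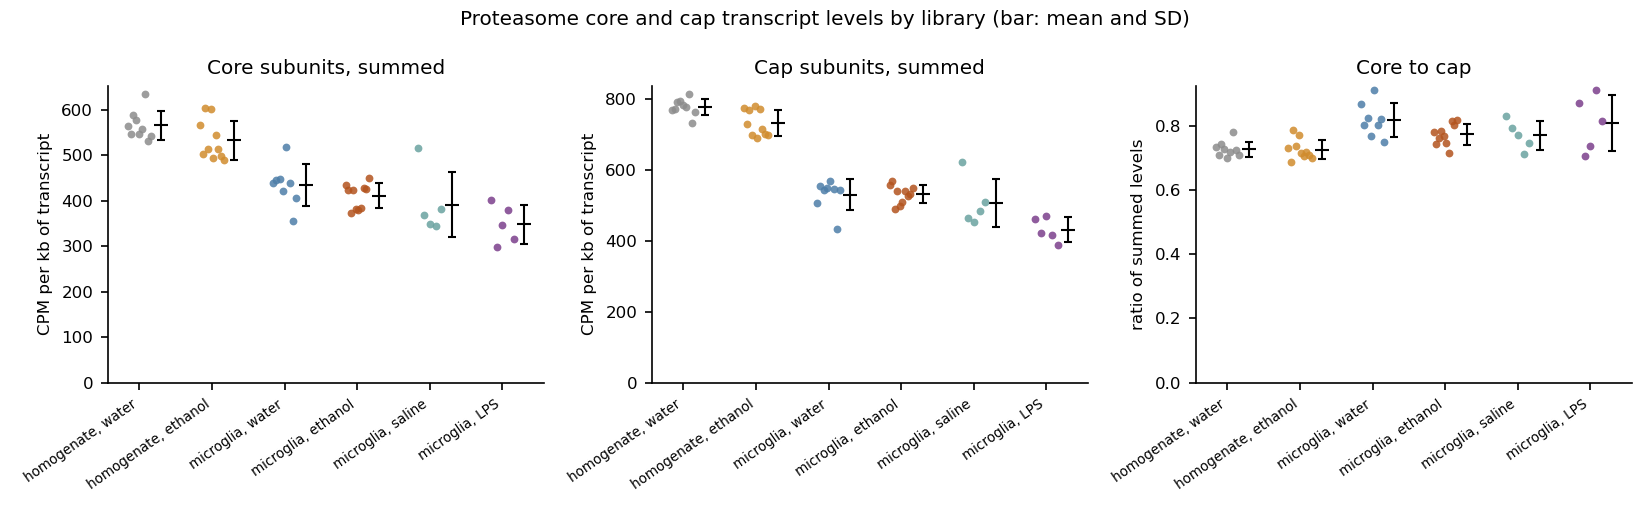
Summed levels of core and cap subunits (CPM per kb of transcript) and their ratio, 1 point per library in each of the 6 groups, with the mean and SD beside the points. Cap levels of all homogenates lie above all microglial libraries (692 against at most 623 CPM per kb), while the core to cap ratio overlaps between groups.

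The preparation comparison asked which members differ between isolated microglia and the whole tissue of the same region, once in water mice and once in ethanol mice, which share no library. The activators PA28 alpha and beta and PA200 were higher in microglia, the cap ATPases Psmc5 and Psmc1 and the catalytic subunit Psmb5 were lower, and most core and cap subunits lay within 0.5 log2 units of no change. In water mice 29 of 44 members differed in edgeR's quasi-likelihood test at a Benjamini-Hochberg adjusted p of 0.05, 5 higher and 24 lower, where 84.4% of all genes tested differed (35.3% higher and 49.1% lower). In ethanol mice 26 of 44 members differed, 8 higher and 18 lower, where 84.5% of all genes tested differed (38.8% higher and 45.6% lower). The calls were 65.9% of members in water mice and 59.1% in ethanol mice, and no test against the share of all genes was made. The median log2 fold change of the members was -0.23 in water mice, where that of all genes was -0.37, and -0.06 in ethanol mice, where that of all genes was -0.21.

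The homogenate was taken before dissociation, so what the beads enriched and what the isolation changed cannot be told apart. Summed immediate early genes, which respond to cell handling, reached 17052 to 30184 CPM in microglia against 336 to 1113 CPM in homogenate, and their part in these differences was not tested. In ethanol mice the scaling mattered. With RLE in place of TMM scaling the median of all genes was -0.43, and 32 members were called, 5 higher and 27 lower. Of all 14637 genes 85.2% were called under RLE, 5025 higher and 7445 lower, against 5686 and 6681 under TMM. Then 9 more were called lower (Psma3, Psmb3, Psmb4, Psmb6, Psmd1, Psmd3, Psmd4, Psmd6 and Psmf1), 3 were no longer called higher (Psmb2, Psmc2 and Psmd12), and 13 of the calls kept moved by over 1.5 times. In water mice both scalings gave 5 higher and 24 lower, and each called 84.4% of all genes. Without the microglia of water mice 19 and 24 the water comparison called 25 members, 8 higher and 17 lower, with a member median of -0.09. Of all 15429 genes 84.3% were called there, 5779 higher and 7233 lower, with a median of -0.29. Psma1, Psma3 and Psmc6 were then called higher, at 0.17 (SE 0.07), 0.23 (SE 0.09) and 0.20 (SE 0.08), and 7 members were no longer called lower (Psma4, Psmb4, Psmd1, Psmd3, Psmd5, Psmd12 and Psmf1).

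**Figure D2:**
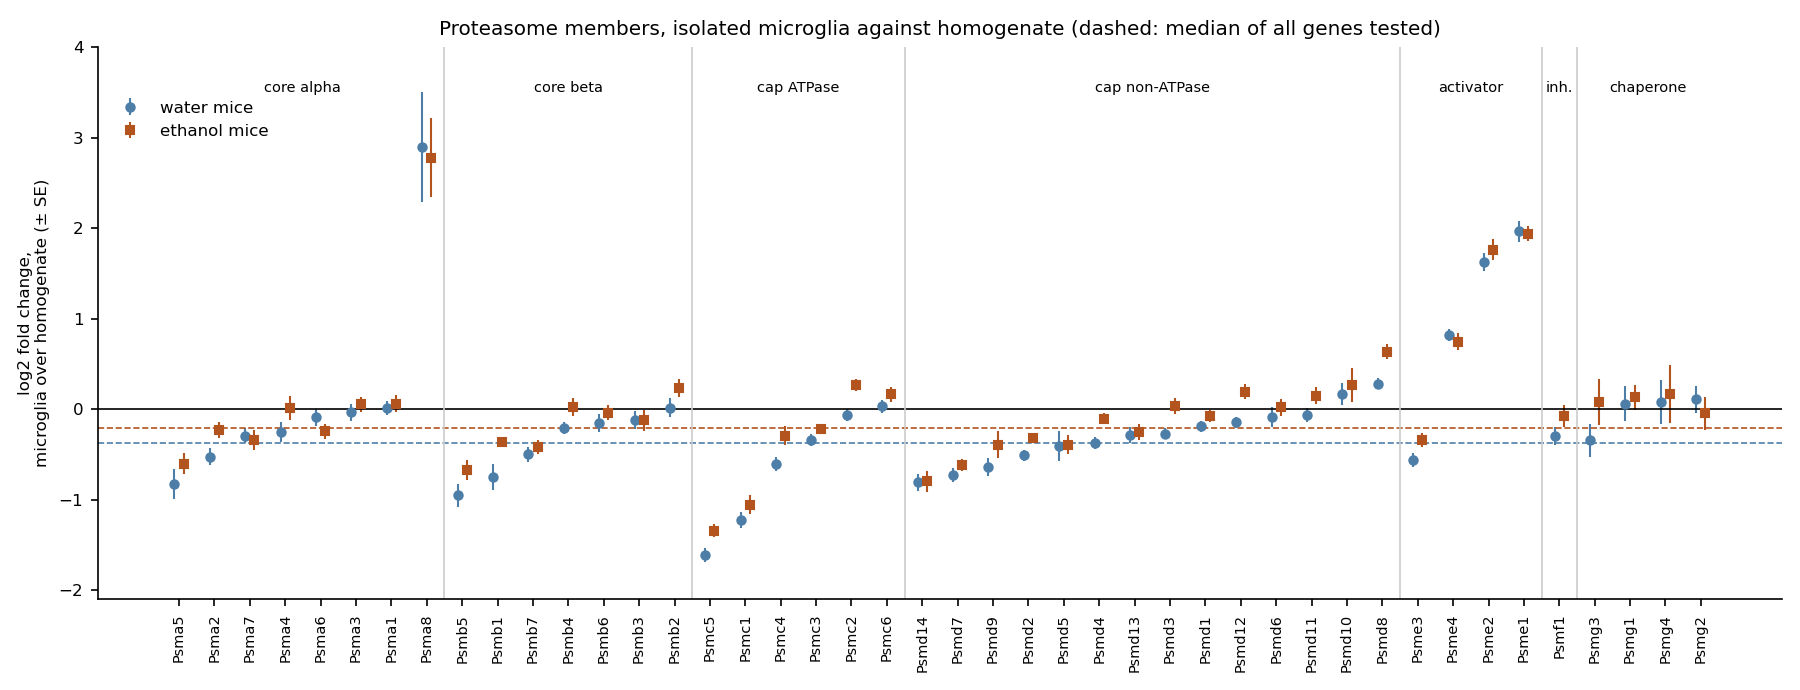
Log2 fold change of microglia over homogenate (vertical axis, with SE) for the 44 members tested, ordered by class and by size, in water mice (circles) and ethanol mice (squares), with dashed lines at the median of all genes. Psme1 and Psme2 lie near 1.6 to 2.0 and Psma8 near 2.8 with wide errors, Psmc5 and Psmc1 lie below -1, and most other members lie close to 0 or to the dashed lines.

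Among activators, Psme1 was at 16.8, 20.8 and 30.2 CPM (lowest, median and highest of 9) in water homogenates and at 58.7, 79.3 and 90.5 CPM (of 8) in water microglia. In ethanol mice the values were 16.9, 22.7 and 25.4 CPM (of 10) and 63.4, 72.9 and 92.6 CPM (of 10). No microglial library overlapped a homogenate, and the log2 fold change was 1.96 (SE 0.12) in water mice and 1.94 (SE 0.08) in ethanol mice, with adjusted p of 1.81e-11 and 1.32e-15 in edgeR's test. Psme2, the partner of Psme1 in the PA28 ring, rose alongside, from a median of 13.9 to 43.5 CPM in water mice (1.62, SE 0.10) and from 13.8 to 42.2 CPM in ethanol mice (1.76, SE 0.11). The summed level of these 2 genes over that of the core was 0.0602 ± 0.0120 (SD, n = 9) in water homogenates and 0.263 ± 0.0202 (SD, n = 8) in water microglia. The pair lies tail to tail, Psme1 at chr14:55578123-55581529 on the plus strand and Psme2 at chr14:55587441-55591113 on the minus strand (GRCm38), with 5911 bases between their ends.

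Psme4, which encodes PA200, an activator known from work on histone breakdown, had 56.4, 61.4 and 69.7 CPM (lowest, median and highest of 9) in water homogenates and 89.2, 98.6 and 120 CPM (of 8) in water microglia. The log2 fold change was 0.82 (SE 0.07), and it was 0.75 (SE 0.10) in ethanol mice, where 1 homogenate at 86.5 CPM lay within the range of the microglia. Psme3, the nuclear PA28 gamma, went the other way, with 94.8, 102 and 110 CPM (of 9) in water homogenates and 39.3, 71.0 and 76.7 CPM (of 8) in water microglia. Its log2 fold change was -0.57 (SE 0.08) in water mice and -0.34 (SE 0.08) in ethanol mice, and it was called lower in both, with -0.58 (SE 0.07) in ethanol mice under RLE scaling and -0.37 (SE 0.06) in water mice without mice 19 and 24. The lowest Psme3 and Psme2 values among water microglia were both in mouse 24.

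The 3 immunoproteasome genes, which were not among the members, were also higher in microglia. Psmb8 differed by 4.01 (SE 0.20) and 4.16 (SE 0.17), Psmb9 by 3.80 (SE 0.31) and 4.04 (SE 0.23) and Psmb10 by 0.77 (SE 0.11) and 1.08 (SE 0.08) on the log2 scale in water and ethanol mice, and all were called. Of their standard counterparts, Psmb5 and Psmb7 were lower, and Psmb6 passed only in ethanol mice under RLE scaling. Per length, the 3 immunoproteasome genes summed to 0.154 ± 0.0299 (SD, n = 9) of Psmb5, Psmb6 and Psmb7 in water homogenates and to 0.790 ± 0.126 (SD, n = 8) in water microglia. Set against its own counterpart, Psmb8 was at 1.50 ± 0.324 (SD, n = 8) of the Psmb5 level in water microglia, Psmb10 at 0.963 ± 0.175 of Psmb7 and Psmb9 at 0.330 ± 0.0802 of Psmb6.

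Of the 15 core members tested, 1 was called higher and 8 lower in water mice (median -0.21), and 2 higher and 7 lower in ethanol mice (median -0.13). Psmb5 (chr14:54614119-54618022, minus strand), the chymotrypsin-like subunit, was at 38.8, 49.4 and 59.2 CPM (lowest, median and highest of 9) in water homogenates and 16.3, 22.6 and 32.8 CPM (of 8) in water microglia. These ranges did not overlap, nor did those of ethanol mice (34.5 to 53.4 and 16.8 to 29.6 CPM), and the log2 fold change was -0.95 (SE 0.13) and -0.68 (SE 0.11). Psmb7, the trypsin-like subunit, changed by -0.50 (SE 0.08) and -0.42 (SE 0.08) and was called in both, with -0.65 (SE 0.08) in ethanol mice under RLE scaling. Psmb6, the caspase-like subunit, did not pass in either set of mice (-0.15, SE 0.10, and -0.04, SE 0.08), but was called lower in ethanol mice under RLE scaling (-0.27, SE 0.07). Psma5, an alpha ring subunit, was also called lower in both (-0.83, SE 0.17, and -0.60, SE 0.11).

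Against most of its class, Psma8 was called higher in both sets of mice, by 2.90 (SE 0.61) and 2.77 (SE 0.44) on the log2 scale. It stayed low in absolute terms, between 0.356 and 7.29 CPM in the microglia of drinking mice. Psmb2, a non-catalytic beta subunit, was called higher in ethanol mice only under the TMM scaling (0.23, SE 0.10), and was at 0.01 (SE 0.09) under RLE. Psmb1 and Psma2 were called lower in both sets, and Psma1, Psma3 and Psmb3 in neither. Under RLE scaling Psma3 (-0.17, SE 0.08) and Psmb3 (-0.36, SE 0.11) were called lower in ethanol mice.

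Of the 20 cap members, 1 was called higher and 14 lower in water mice (median -0.32), and 3 higher and 10 lower in ethanol mice (median -0.16). The ATPase Psmc5 (chr11:106256154-106263120, plus strand) was at 119, 126 and 138 CPM (lowest, median and highest of 9) in water homogenates and 26.9, 40.5 and 50.3 CPM (of 8) in water microglia. In ethanol mice the values were 107, 123 and 132 CPM (of 10) and 37.0, 40.4 and 50.1 CPM (of 10). The highest microglial value thus lay far under the lowest homogenate, and the log2 fold change was -1.61 (SE 0.08) and -1.34 (SE 0.07), with adjusted p of 1.09e-12 and 8.74e-14 in edgeR's test. Psmc1, another ATPase of the ring (chr12:100110154-100123405, plus strand), went from medians of 120 and 107 CPM in homogenate to 48.6 and 43.8 CPM in microglia, with log2 fold changes of -1.23 (SE 0.09) and -1.06 (SE 0.10).

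The ring did not move as 1 block. Psmc4 and Psmc3 were called lower in both sets of mice (-0.61, SE 0.08, and -0.29, SE 0.11, for Psmc4, the latter -0.53 under RLE scaling). Psmc6 passed in neither, at 0.03 (SE 0.07) and 0.16 (SE 0.09). Psmc2 was at -0.06 (SE 0.07) in water mice and was called higher in ethanol mice at 0.27 (SE 0.07), which fell to 0.04 (SE 0.06) and was not called under RLE scaling. The 6 subunits sit in equal number in the finished ring.

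Among the non-ATPase subunits, the deubiquitinase Psmd14, which cuts the ubiquitin chain off the substrate, had 38.2, 44.96 and 50.6 CPM (of 9) in water homogenates and 17.8, 24.95 and 32.4 CPM (of 8) in water microglia. Its log2 fold change was -0.81 (SE 0.09), and -0.80 (SE 0.12) in ethanol mice. Psmd7, its partner in the lid, was lower by a like amount (-0.73, SE 0.07, and -0.62, SE 0.06). The scaffold subunit Psmd2 was lower too (-0.51, SE 0.06, and -0.32, SE 0.05, the latter -0.55 under RLE scaling), from medians of 202 and 189 CPM in homogenate to 131 and 132 CPM in microglia. The ubiquitin receptor Psmd4 was called lower in water mice (-0.38, SE 0.06) and not called in ethanol mice (-0.11, SE 0.06), where it was called lower under RLE scaling (-0.33, SE 0.06). In water mice without mice 19 and 24 it was at -0.24 (SE 0.07) and still called. Psmd11, a lid subunit studied for its part in cap assembly, passed in neither (-0.06, SE 0.08, and 0.15, SE 0.10).

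Psmd8, a lid subunit, was the 1 cap member called higher in both sets of mice. It was at 57.3, 62.8 and 66.2 CPM (of 9) in water homogenates and 59.6, 72.2 and 80.1 CPM (of 8) in water microglia, and at 52.3, 55.7 and 59.8 CPM and 61.4, 74.5 and 94.4 CPM (of 10 each) in ethanol mice. The groups overlapped in water mice and did not in ethanol mice, and the log2 fold change was 0.28 (SE 0.06) and 0.63 (SE 0.08). It was 0.44 (SE 0.06) in water mice without mice 19 and 24, and 0.41 (SE 0.08) in ethanol mice under RLE scaling, and was called in both. Psmd12, another lid subunit, was called lower in water mice (-0.14, SE 0.06) and higher in ethanol mice (0.19, SE 0.09). Neither call held: it was at 0.06 (SE 0.06) in water mice without the microglia of mice 19 and 24, and at -0.04 (SE 0.08) in ethanol mice under RLE scaling.

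**Figure D3:**
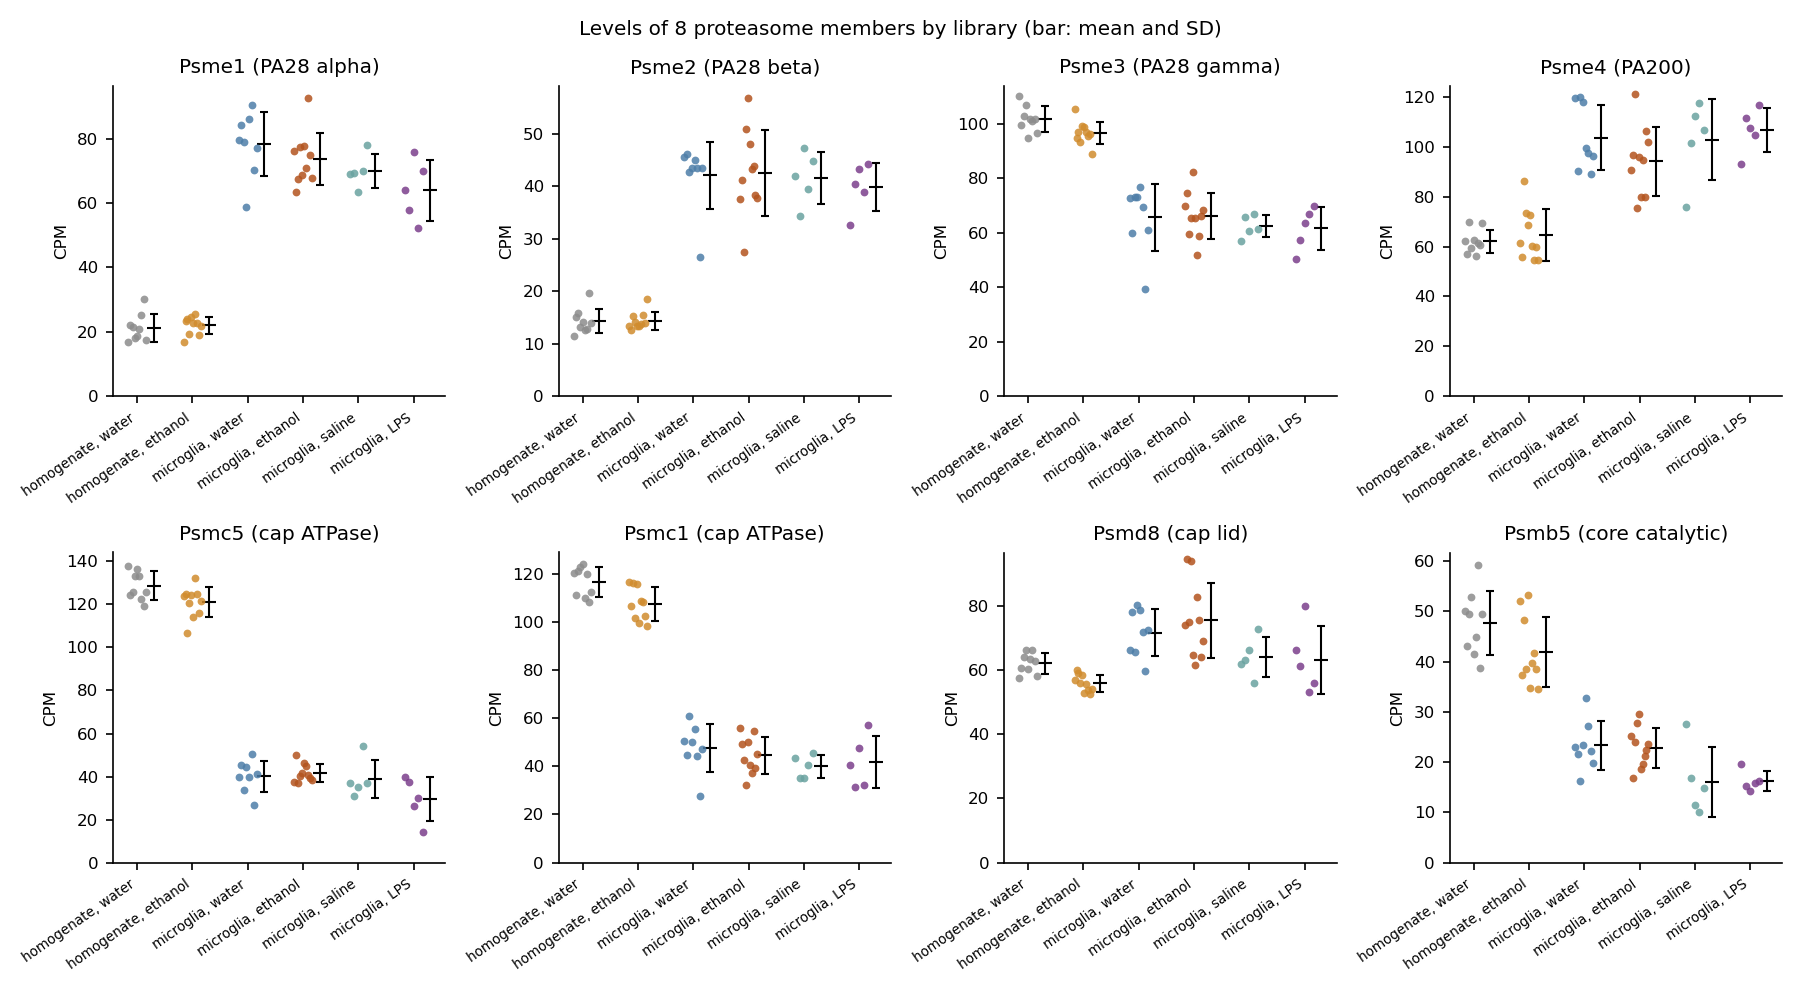
CPM of 8 members, 1 point per library in each of the 6 groups, with the mean and SD beside the points. Psme1 and Psme2 lie higher and Psmc5 and Psmc1 lower in every microglial group than in every homogenate, while group means of Psmd8 run from 55.8 to 75.4 CPM.

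None of the 4 assembly chaperones was called in either set of mice. Psmg1 and Psmg2, which act as a pair on the alpha ring, were at 0.06 (SE 0.19) and 0.11 (SE 0.15) in water mice, and Psmg3 and Psmg4, the other pair, at -0.35 (SE 0.19) and 0.08 (SE 0.24). These genes were at 3.09 to 9.21 CPM on average in water homogenates, and in water mice only Psma8 had a wider error than Psmg4. The inhibitor Psmf1, which binds the core ends, was called lower in water mice (-0.30, SE 0.10) and not called without the microglia of water mice 19 and 24 (-0.16, SE 0.11). In ethanol mice it did not pass (-0.08, SE 0.12), but was called lower under RLE scaling (-0.31, SE 0.12).

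Across both sets of mice 34 of 44 members had the same sign, 5 were called higher in both (Psma8, Psmd8, Psme1, Psme2 and Psme4) and 17 lower in both. With the mouse as a block 27 and 25 members were called, where 82.9% and 84.3% of all genes were. Fits were also made within single sequencing runs, as inferred from the sample sheet numbers, on fewer libraries each. In water mice these called 21 and 22 members, where 74.2% and 75.1% of all genes were called. In ethanol mice they called 17, 18 and 13 members, where 70.2%, 76.0% and 66.0% of all genes were called.

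Other genes of the pathway came from a list of 32 associated factors, assembly factors, ubiquitin genes, shuttle receptors and transcriptional controls. In water mice 13 of them were called higher and 16 lower in microglia, where 35.3% of all genes were higher and 49.1% lower. In ethanol mice 14 and 13 were, where 38.8% and 45.6% of all genes were. The listed genes were not tested against these shares. Nfe2l2, the factor of the oxidative stress response, was higher by 3.69 (SE 0.15) and 3.73 (SE 0.09) on the log2 scale in water and ethanol mice. Nfe2l1, which drives proteasome genes when the proteasome is impaired, was lower by contrast, at -1.53 (SE 0.05) and -1.23 (SE 0.08). The ubiquitin shuttle Ubqln4 was at -1.83 (SE 0.06) and -1.75 (SE 0.11), and Zfand5, a proteasome-binding zinc finger protein, at 1.65 (SE 0.07) and 1.88 (SE 0.07).

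The ethanol comparison asked whether voluntary drinking changed the members. None of 44 was called in either preparation. In microglia 0.00756% of all genes tested were called, DESeq2 called none of the members either, and 1 member had an unadjusted p under 0.05, as had 7.65% of all genes. The 1 member was Psma6, an alpha ring subunit, with 23.7, 39.7 and 50.8 CPM (lowest, median and highest of 8) with water and 23.6, 30.5 and 35.8 CPM (of 10) with ethanol. The groups overlapped, and the log2 fold change of -0.39 (SE 0.11) had an adjusted p of 0.306 in edgeR's test. Next by p were Psmd13 at -0.21 (SE 0.10) and Psma1 at -0.23 (SE 0.11). The core median was -0.09 and the cap median -0.04, where that of all genes was -0.01, and the 4 activators lay between -0.17 and -0.01. Without the microglia of water mice 19 and 24 no member was called either, where 0.00737% of all genes were.

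In homogenate 0.808% of all genes tested were called (0.611% higher and 0.197% lower), and 6 members had an unadjusted p under 0.05, as had 16.1% of all genes. All 6 were lower with ethanol (Psmd8, Psma2, Psma5, Psmc1, Psmd12 and Psmc2). Psmd8 had 57.3, 62.8 and 66.2 CPM (of 9) with water and 52.3, 55.7 and 59.8 CPM (of 10) with ethanol, with some overlap. Its log2 fold change of -0.14 (SE 0.04) missed the threshold in edgeR's test (adjusted p = 0.0741) and passed in DESeq2 (adjusted p = 0.0089), which called 1 member and 3.51% of all genes. Psma2 was at -0.17 (SE 0.06) and Psma5 at -0.15 (SE 0.05), with adjusted p of 0.130 and 0.177 in edgeR's test. Of the cap members 19 of 20 had a negative value, with a median of -0.08, and of the core 13 of 15, with a median of -0.06, where the median of all genes was -0.01 and 47.6% of them were positive. Subunits of 1 library are not independent of each other, and the shared sign was not tested.

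Ethanol homogenates also had more reads outside genes, 27.1% ± 4.20 (SD, n = 10) against 22.5% ± 1.91 (SD, n = 9). With that share as a covariate none of the 15215 genes was called by edgeR, 7.89% had an unadjusted p under 0.05, and the member median was -0.04. The share itself differed between the groups, so its part and that of ethanol cannot be told apart by this covariate. From the pathway list Pomp, the chaperone of core maturation, was called lower in ethanol homogenates by edgeR (-0.24, SE 0.05, adjusted p = 0.0349), a call lost with that covariate. The test of whether the ethanol response differed between microglia and homogenate called 0.342% of all genes (0.158% higher and 0.184% lower) and none of the members, and 4 members had an unadjusted p under 0.05, as had 12.4% of all genes. With the mouse as a block, on the paired mice, it called none of 15749 genes, against 26 without the block, and DESeq2 called none of the members. Psma6 came nearest (-0.29, SE 0.12), followed by Psmd8 at 0.22 (SE 0.10) and Psmc2 at 0.20 (SE 0.09), with adjusted p of 0.256 to 0.344 in edgeR's test.

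The LPS comparison asked whether members stayed changed 1 week after the injection. None of 44 was called, where 0.016% of all genes were, and DESeq2 called none of the members, while 5 had an unadjusted p under 0.05, as had 5.78% of all genes. Without saline mouse 38 the 5 became 0, and the share of all genes was 5.86%. The cap subunit Psmd3 was at 75.4, 90.8, 94.1, 97.2 and 121 CPM in the 5 saline libraries and at 68.5, 70.2, 70.8, 82.0 and 82.2 CPM in the 5 LPS libraries. The groups overlapped in 1 saline library, and the log2 fold change was -0.36 (SE 0.14, adjusted p = 0.774 in edgeR's test). Psmb4 was at 64.7, 70.4, 72.1, 82.0 and 93.1 CPM with saline and 46.8, 55.8, 61.7, 64.4 and 65.1 CPM with LPS (-0.38, SE 0.15). The highest value of both genes was that of saline mouse 38.

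Psmd6, a lid subunit of the cap, was at 26.8, 28.6, 29.7, 32.8 and 62.0 CPM with saline, the last from mouse 38, and at 14.5, 16.2, 20.3, 30.6 and 33.5 CPM with LPS. The log2 fold change of -0.66 (SE 0.29) became -0.35 (SE 0.25) without mouse 38. The core median moved from -0.08 to 0.05 and the cap median from -0.25 to -0.15 when that library was left out, and 0 members were called either way. PA28 did not pass either: Psme1 was at 63.5, 68.9, 69.2, 70.0 and 78.2 CPM with saline and 52.1, 57.7, 64.1, 70.0 and 75.9 CPM with LPS, with overlapping groups. The errors of the 44 members ranged from 0.13 to 1.54 log2 units. With 5 mice a group even differences well beyond their errors were not called, such as -0.66 (SE 0.29) for Psmd6. The absence of calls therefore does not exclude changes of that size.

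The 2 control groups of microglia, saline and water, differ in cohort and handling, which cannot be told apart, and 1 water library shared the inferred sequencing run of the saline libraries. With 1 library on the water side, the part of the run could not be tested. None of 44 members was called between saline and water microglia, where 0.832% of all genes were (0.794% higher and 0.0378% lower with saline). DESeq2 called none of the members, and 4 had an unadjusted p under 0.05, as had 11.6% of all genes. The smallest p-values belonged to Psma6 (-0.49, SE 0.16), the chaperone Psmg2 (-0.98, SE 0.35) and Psmd14 (-0.51, SE 0.20), with adjusted p of 0.190 to 0.306 in edgeR's test. Without saline mouse 38 edgeR called 1.69% of all genes, and the alpha subunit Psma7 was called lower (-0.87, SE 0.16, adjusted p = 0.00992). It was at 16.2, 19.9, 24.7, 25.6 and 53.4 CPM in the saline libraries, the last from mouse 38, and at 32.5, 39.0 and 50.3 CPM (lowest, median and highest of 8) in water microglia. From the pathway list Zfand5 was called higher with saline (0.42, SE 0.08).

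**Figure D4:**
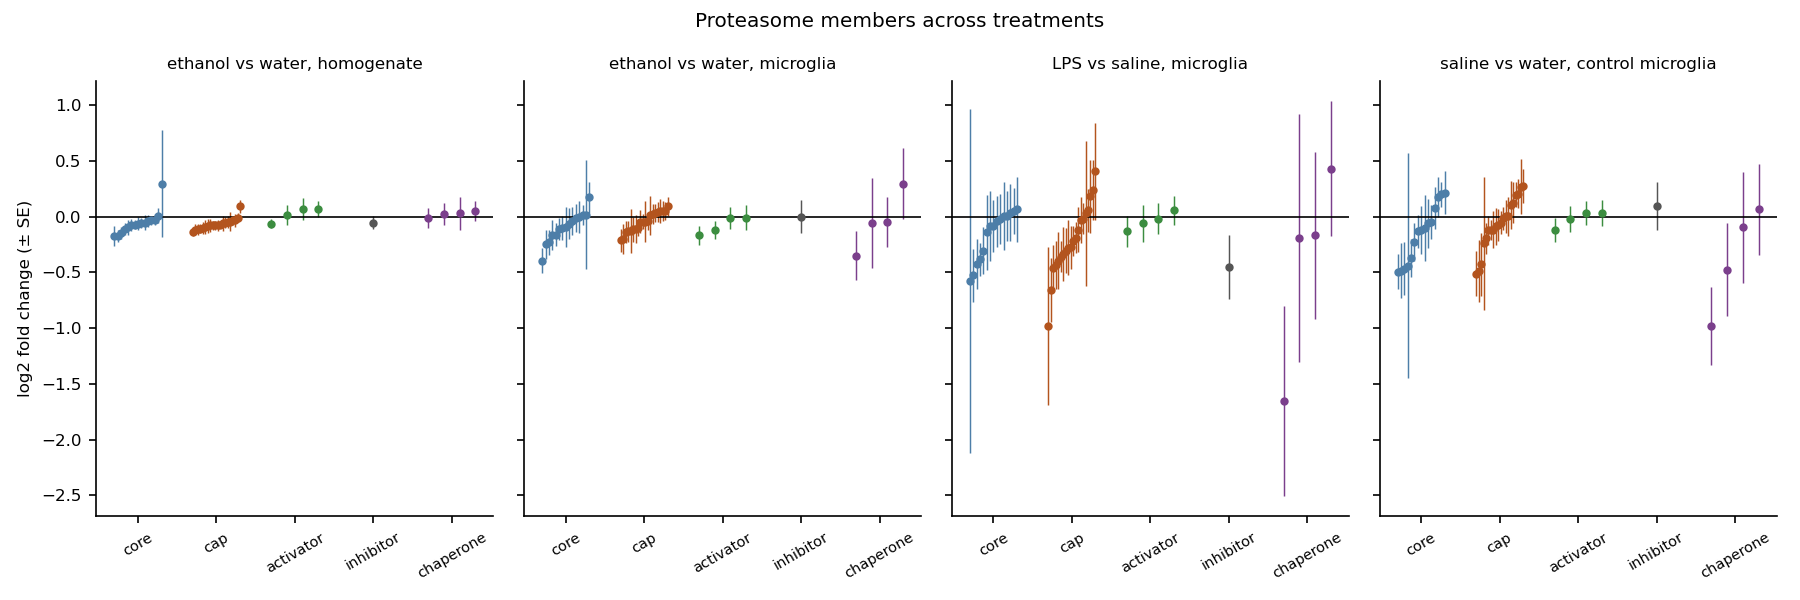
Log2 fold change with SE of the 44 members in the 4 treatment and control comparisons, grouped by class (1 point per gene, sorted within its class). No point was called, homogenate values lie between -0.17 and 0.30, and the errors are widest in the LPS comparison.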

How the data were processed

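RNA of 47 libraries was sequenced as stranded, paired-end poly(A) libraries, per the labels' protocols. The authors deposited HTSeq read counts per gene for each library, unnormalized, after STAR alignment to mm10 (bcl2fastq 2.15.0.4 and FastQC are also listed), per the submitters' processing notes. The annotation, strand setting and treatment of multiply mapped reads were not given in the sources used here. Proteasome genes have processed pseudogenes, and Psmd1, Psmg3 and Psmb5 overlap other genes on the same strand, so reads may be shared; Psme1 overlaps Emc9 by 14 bases on the other strand.

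The 5 tally rows of each file were left out of library totals. Counts were tested with edgeR 4.0.16 (quasi-likelihood test, TMM, filterByExpr) in R 4.3.3, within the groups compared, with Benjamini-Hochberg adjustment over all genes at 0.05. A check on simulated data changed few genes, up or down at random, so it could not test the scaling in the preparation comparisons. SE is the fold change over the root of F. CPM is per total count in genes, and CPM per kb uses the GENCODE principal transcript. Replicates of 1 group differed beyond sampling noise (lowest chi-square per degree of freedom 13.2). The SE includes the spread between libraries, while the floor given for Psmb11 covers counting error only. Both preparations of a numbered mouse come from the same tissue, per the labels' protocols (4 water homogenates carry the microglial text); deviations of the 18 pairs correlated weakly (median 0.0428, range -0.0325 to 0.132). Alternatives were RLE scaling, no filter, DESeq2 1.42.0, limma 3.58.1 voom, the mouse as block, inferred runs, reads outside genes and libraries left out.

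Members, lists and motifs were chosen with earlier results of these data known. Named were the catalytic subunits, selected cap subunits, all activators, the inhibitor, the chaperones, the tissue-restricted genes and, per comparison, the members with the smallest p; others were named after their values were seen.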

Additional observations from a re-analysis of the deposited data

Results flagged for a closer look

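A library at the edge of its group, with a gap to the next that is large for the group's range (Dixon's test at 95%), was found in 19 of 204 groups of values, where chance gives about 1 in 20. All values are CPM unless stated.

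Of saline microglia, mouse 38 had Psmd11 at 6.24 (other libraries 34.3 to 39.5), Psmd4 at 89.9 (40.1 to 48.4) and Psmd6 at 62.0 (26.8 to 32.8), and its summed core level was 516 CPM per kb (344 to 381). Also among saline microglia, Psmc5 was at 54.0 in mouse 48 (31.0 to 37.1) and Psmg4 at 4.55 in mouse 46 (2.10 to 2.75). LPS mouse 50 had Psmd13 at 56.0 (27.4 to 34.3) and Psmd2 at 149 (95.4 to 111).

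Of water microglia, mouse 24 had Psme2 at 26.4 (42.6 to 46.1) and Psme3 at 39.3 (59.9 to 76.7), and its summed cap level was 433 CPM per kb (508 to 571). Psma2 was at 42.0 in mouse 19 (23.2 to 31.0), Psmb7 at 54.6 in mouse 16 (37.2 to 43.9) and Psmd6 at 55.6 in mouse 18 (24.1 to 36.4).

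Of ethanol microglia, Psmb4 was at 96.2 in mouse 2 (60.5 to 79.0), Psmd4 at 39.4 in mouse 7 (49.98 to 57.8) and Psme1 at 92.6 in mouse 11 (63.4 to 77.7). In homogenates, Psme2 was at 18.6 in ethanol mouse 14 (12.5 to 15.4) and Psmb11 at 0.130 in water mouse 21 (0 to 0.0506).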

How the results depend on the processing

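Counts of members called in the preparation comparisons ran from 24 to 30 in water mice and 24 to 26 in ethanol mice when single microglial libraries were left out. The share of all genes called ran from 83.7% to 84.6% and from 84.1% to 84.7% in these fits. With the mouse as a replicate block, 27 and 25 members were called, where 82.9% and 84.3% of all genes were. The blocked test of the ethanol response between preparations called 0 members and 0 of 15749 genes. Within inferred runs, on fewer libraries, ethanol mice gave 17 members in run 1 and 13 in run 3, where 70.2% and 66.0% of all genes were called. DESeq2 called 1 member (Psmd8) and 3.51% of all genes between ethanol and water homogenates. Leaving out saline mouse 38 gave 1 member (Psma7) and 1.69% of all genes between saline and water microglia, where leaving out single libraries gave 0 to 1 member. The core to cap ratio moved most with its definition. The sums run over 16 core and 20 cap members, while a median does not grow with the number of members. How much each part of the definition accounted for was not tested. As a median over members it was 1.09 in ethanol and 1.05 in water homogenates, 1.02 in ethanol and 1.10 in water microglia, 1.00 with LPS and 0.942 with saline. With the union of exons as length, an alternative chosen after seeing the data, it was 0.634, 0.640, 0.714 and 0.751 in the first 4 of these groups, 0.746 with LPS and 0.713 with saline. Within-run fits and left-out microglial libraries of the preparation comparisons were also added after the data were seen. Members under 10 CPM, such as the chaperones, varied widely between microglial libraries. Psmg2 was at 6.95 ± 2.69 and Psmg4 at 5.27 ± 2.93 CPM per kb (SD, n = 28), and the part of depth in this was not tested.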
